A study of Homo sapiens with 12 samples.

Results

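Chromatin-associated RNA and poly(A) RNA of unperturbed control cells were compared gene by gene. The comparison uses 4 of the 12 libraries of the series, chosen by their titles: 2 chromatin RNA libraries (labelled replicates 1 and 5) and 2 poly(A) RNA libraries (labelled replicates 1 and 2), all from cells transfected with a control siRNA. The cells were T47D-MTVL, a line derived from the luminal breast cancer line T47D that carries a luciferase reporter under the MMTV promoter, kept in phenol red-free RPMI with charcoal-stripped serum and given no progestin. The knockdown and mutant-polymerase libraries were left out. The poly(A) libraries were made from total cell RNA with the TruSeq Stranded mRNA kit. The chromatin libraries were made from the pellet that remained after nuclei had been extracted with urea and NP-40, after DNase and proteinase K, with the TruSeq Stranded Total RNA kit and Ribo-Zero. The fraction and the kit change together and cannot be told apart in any value given here. Whether the 2 libraries of a fraction are from different cultures, and whether both fractions were taken from the same ones, is not given in the labels. The p-values below therefore rest on library-to-library spread alone, which may be technical.

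Chromatin RNA holds transcripts that are still being made by RNA polymerase, together with noncoding RNAs that stay in the nucleus. Poly(A) selection keeps RNAs with a 3′ tail of adenines, most of which are spliced mRNAs in the cytoplasm. Messenger RNAs get their tail after cleavage downstream of a hexamer such as AATAAA, whereas the mRNAs of replication-dependent histones end in a stem-loop with no tail, and many small structured RNAs made by RNA polymerase III or trimmed from longer transcripts also lack one.

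Stretches of 9 transcripts are shown because poly(A) selection depends on how an RNA ends, and these genes carry the results on small RNAs, histones and mRNAs. They are from GENCODE 29 transcripts (GRCh38), 5′ to 3′: the last 30 bases of the first 6, and the stem-loop with 7 bases on each side for the histones. In the first 3, from genes with high poly(A) counts, capitals mark the hexamer AATAAA.
ACTB: tgagaccagttgAATAAAagtgcacacctt
GAPDH: accatcAATAAAgtaccctgtgctcaacca
KRT19: cctgccAATAAAaatttatggtccaaggga
The last annotated bases of 3 small structured RNAs hold neither AATAAA nor ATTAAA. Whether the mature RNAs end at these bases was not tested.
7SK: ggcgctgcatgtggcagtctgcctttcttt
RMRP: ccacacggggctcattctcagcgcggctgt
TERC: caatgggggcttgtgaacccccaaacctga
In 3 histone transcripts capitals mark the histone stem-loop, which in H2BC21 lies inside the longer annotated transcript and not at its end.
H2AC13: aaccaaaGGCTCTTTTCAGAGCCacctaca
H2BC13: acccaaaGGCTCTTTTCAGAGCCactcact
H2BC21: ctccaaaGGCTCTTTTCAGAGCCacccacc
On the transcript strand, AATAAA stood within the last 50 bases of the longest transcript in 32.4% of 52337 genes and in 59.5% of 19249 protein-coding genes, and ATTAAA in 10.3% and 17.1%. The histone stem-loop was found in the longest transcript of 76 genes.

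The chromatin libraries held 7040541 and 6667627 counts and the poly(A) libraries 44318629 and 132764704. Log2 CPM (counts scaled to a common library total) correlated across the 39603 genes tested at r = 0.952 between the chromatin libraries, 0.997 between the poly(A) libraries and 0.736 to 0.757 between fractions. Luminal markers were high in poly(A) RNA: all 8 listed (ESR1, PGR, GATA3, FOXA1, KRT8, KRT18, KRT19 and EPCAM) were at 151 CPM or more in both libraries. The basal keratin KRT5 had 0 poly(A) counts, and KRT14 and the leukocyte gene PTPRC were at 0 or 0.0226 CPM, but all 3 had between 11.2 and 40.8 CPM in chromatin. Of the other 4 markers of other cell types, TP63 was at 0.767 and 0.866, ACTA2 at 4.67 and 4.35, and VIM at 5.46 and 6.51 poly(A) CPM, while the collagen gene COL1A1 reached 68.5 and 55.7 CPM and was the only one of the 7 over the chromatin floor defined next. Such low chromatin counts were spread over genes with no other sign of use. Of 3075 protein-coding genes with 0 counts in both poly(A) libraries and 300 or more exonic bases, 88.8% and 87.4% had a count in the chromatin libraries. The medians over the 3075 genes were 12.6 and 14.7 counts per kb of exon. The 95th percentile of these silent genes, 42.2 and 54.6 counts per kb, is used below as the chromatin floor.

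In share of counts the libraries differed most in protein-coding genes, and in ratio most in the small RNA classes. Protein-coding genes took 49.9% and 56.8% of the chromatin counts and 92.7% and 92.2% of the poly(A) counts. The small RNA classes (snRNA, snoRNA, scaRNA, miRNA precursors, rRNA copies and other small RNAs) took 22.2% and 13.4% of chromatin and 0.0061% and 0.0059% of the poly(A) libraries. Long noncoding RNA (lncRNA) genes took 16.2% and 17.4% against 0.786% and 0.789%. Without RMRP and AL355075.4, a gene that contains the ribonuclease P RNA gene RPPH1 on the same strand, the lncRNA share was 6.81% and 7.55% against 0.785% and 0.789%. The mitochondrial genome went the other way, with 1.92% and 2.01% of chromatin and 5.67% and 6.13% of poly(A) counts. In each of these classes the 2 fractions did not overlap, although the chromatin libraries themselves differed by more than counting error. The 95% Wilson intervals, which cover counting error only, reached at most 0.0376 percentage points either side in chromatin.

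**Figure D1:**
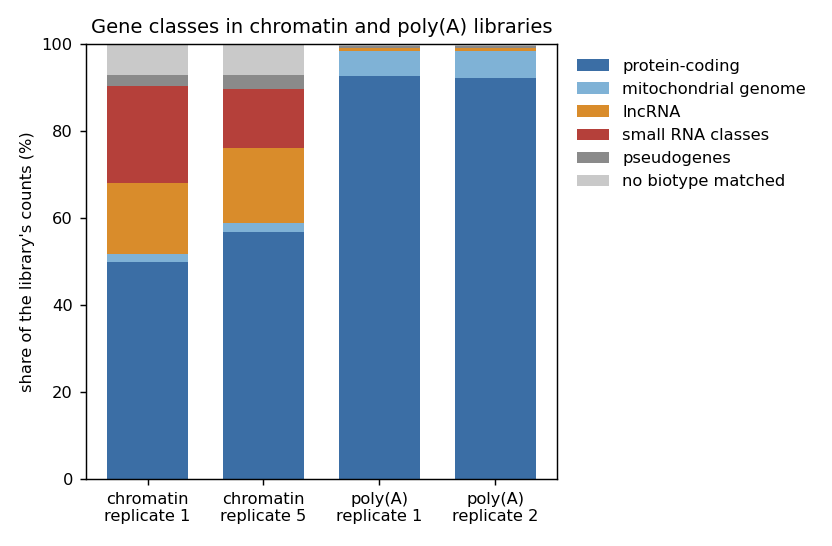
Stacked bars give the share of each library's counts (%) in 6 gene classes for the 2 chromatin and the 2 poly(A) control libraries. Small RNA and lncRNA classes fill a visible part of the chromatin bars alone, and protein-coding genes fill 92.7% and 92.2% of the poly(A) bars.

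Over all 39603 genes tested, edgeR's quasi-likelihood test on TMM-scaled counts called 27123 genes (68.5%) higher in chromatin and 8133 (20.5%) higher in poly(A) RNA, at an adjusted p under 0.05 and a difference of 2-fold or more. Scaled by total counts alone, the split was 29438 to 3723, and with TMM factors from protein-coding genes 28829 to 4751. Of the 27123 genes, 24924 did not exceed the chromatin floor, so this count is mainly of genes with background-level chromatin counts against little or no poly(A) RNA. The classes are therefore described over the 3659 genes measured in both fractions, that is, over the floor with at least 20 counts in both chromatin libraries and at 1 CPM or more in both poly(A) libraries. Another 2034 genes passed in chromatin alone and 9380 in poly(A) RNA alone, and these are counted separately. The limits differ between the fractions, so passing in poly(A) RNA alone does not set the side of a ratio.

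The scale sets which side of 0 a ratio falls on. For the 3429 protein-coding genes among the 3659, the median log2 ratio of chromatin to poly(A) was −2.29 on the TMM scale, −1.05 with total counts and −1.34 with protein-coding TMM factors. Ratios below are log2 values relative to this median gene (relative ratio, from an edgeR fit with library sizes set so that it stands near 0), and a relative ratio between 0 and 2.29 is below 0 on the TMM scale. On this relative scale 906 of the 3659 genes (24.8%) were called higher in chromatin and 597 (16.3%) higher in poly(A) RNA. On the TMM scale the same genes gave 185 (5.06%) and 2933 (80.2%), and 184 (5.03%) and 597 were called on both scales. Of the 15073 genes that passed in either fraction, 2198 (14.6%) and 993 (6.59%) were called on both scales. Among genes that passed in chromatin alone, 2014 of 2034 were called higher in chromatin on both scales. Among those that passed in poly(A) RNA alone, 396 of 9380 were called higher in poly(A) RNA. The chromatin calls lay near the floor: among the 745 genes at 2 or more times the floor, 78 were called for chromatin and 261 for poly(A) RNA.

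Small structured RNAs showed the widest gaps. 7SK, the RNA that holds the elongation factor P-TEFb in an inactive complex (chr6:52860418-52860748, hg19), was at 162788 and 102936 CPM in chromatin and at 8.42 and 10.1 CPM in poly(A) RNA. Its relative ratio was 14.9 ± 0.29 (SE), and both chromatin libraries lay far above both poly(A) libraries. TERC, the RNA template of telomerase (chr3:169482308-169482848), was at 619 and 709 CPM against 0.113 and 0.00753 CPM. RMRP, the RNA of the RNase MRP ribonuclease (chr9:35657748-35658015), was at 50679 and 13860 CPM against 4.08 and 4.90 CPM, with a relative ratio of 13.9 ± 1.68. The chromatin libraries were themselves far apart for RMRP, and both still lay above the poly(A) libraries.

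SCARNA10, a guide RNA of Cajal bodies, stood at 21665 and 17036 CPM in chromatin and had 5 counts in both poly(A) libraries together. All 19 spliceosomal snRNA genes that passed a limit passed it in chromatin alone, as did 29 snoRNA and scaRNA genes. So did 45 snRNA genes of any kind, with 1 more in poly(A) RNA alone, and 21 of the 23 mitochondrial rRNA and tRNA genes that passed. Called higher in chromatin on both scales were 16 of the 19, 17 of the 29, 42 of the 45 and all 21. The same held for 2014 of all 2034 genes that passed in chromatin alone. The 2 chromatin libraries did not hold these RNAs at one level. Over the 29 snoRNA and scaRNA genes the median log2 difference between chromatin replicates 1 and 5 was 1.95, and 20 were at least 2-fold higher in replicate 1, whereas the median over 12120 protein-coding genes was −0.22. SNORD3A, the U3 RNA of ribosome assembly, was at 4983 and 454 CPM, and SNORA73B at 5351 and 341 CPM. SNORA73B missed the threshold (edgeR adjusted p = 0.052 on the relative scale and 0.066 on the TMM scale), although both chromatin values exceeded its 0.181 and 0.384 CPM in poly(A) RNA. Near-identical copies of small RNAs share reads that the counting left out, so their levels are incomplete.

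**Figure D2:**
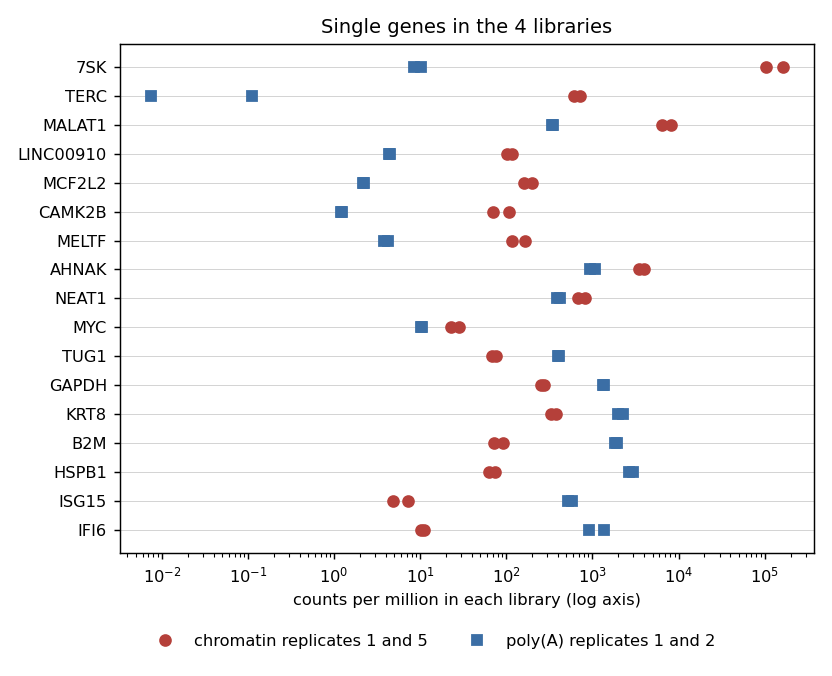
CPM on a log axis for 17 genes, with circles for the 2 chromatin libraries and squares for the 2 poly(A) libraries. The fractions are apart for every gene drawn, with chromatin higher from 7SK to MYC and poly(A) higher from TUG1 to IFI6 in CPM. These CPM carry no TMM scaling, under which NEAT1 turns to −0.30.

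Long noncoding RNAs measured in both fractions leaned to chromatin. Of 132 such genes 105 were called higher in chromatin and 3 higher in poly(A) RNA on the relative scale, and 37 were called higher in chromatin on the TMM scale too. Over all 3659 genes measured in both fractions the relative scale called 24.8% and 16.3%. The median relative ratio was 2.60 for 57 antisense genes (2.44 to 2.61 over the 4 pairs of libraries), 2.76 for 66 intergenic and other lncRNAs (2.68 to 2.81), and 2.00 for 9 sense intronic or overlapping ones (1.67 to 2.36), beside −0.02 for protein-coding genes. The last of these medians is below 0 on the TMM scale. At 2 or more times the floor 23 lncRNAs were left, of which 15 were called higher in chromatin and 0 higher in poly(A) RNA by edgeR. The shares over all 745 genes at that level were 10.5% and 35.0%. A further 395 antisense and 383 intergenic and other lncRNA genes passed in chromatin alone, and 278 and 320 in poly(A) RNA alone.

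MALAT1, a nuclear speckle RNA whose end is made by tRNA-type cleavage (chr11:65265233-65273940), was at 8286 and 6346 CPM in chromatin and 339 and 348 CPM in poly(A) RNA. Its relative ratio of 5.47 ± 0.19 was 89.0 times over the floor in the lower chromatin library and held on the TMM scale (3.21, adjusted p = 2.4e-16). NEAT1, the scaffold of paraspeckles, was at 815 and 688 CPM against 415 and 391 CPM. Its relative ratio of 1.95 ± 0.15 turned to −0.30 on the TMM scale (adjusted p = 0.40), so its side depends on the scale. GAS5, a host transcript of snoRNAs, behaved alike, with 149 and 159 CPM against 98.2 and 115 CPM and a relative ratio of 1.58 ± 0.14, which is −0.71 on the TMM scale.

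LINC00910 was at 118 and 102 CPM in chromatin and 4.51 and 4.32 CPM in poly(A) RNA, a relative ratio of 5.69 ± 0.17 that stayed above 0 under TMM (3.43). It contains the U2 snRNA copy RNU2-4P, whose part in these counts was not tested. ZNF503-AS2, TOB1-AS1, MELTF-AS1 and B4GAT1-DT followed with relative ratios of 5.49, 5.28, 5.10 and 4.54, and with chromatin levels of 1.11 to 2.37 times the floor. SNHG3, which contains SNORA73A and SNORA73B, was at 4044 and 692 CPM against 9.43 and 9.99 CPM. Its relative ratio of 9.04 ± 1.82 (edgeR adjusted p = 0.041) came with a gap between the chromatin libraries in the same direction as that of SNORA73B. KCNQ1OT1, the imprinted antisense transcript of KCNQ1, had 154 and 196 CPM in chromatin and 0 poly(A) counts, but over its 91.7 kb these are 11.8 and 14.2 counts per kb, under the floor and close to the silent-gene median.

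The 3 lncRNAs on the poly(A) side were TUG1, AP000844.2 and DSCAM-AS1. TUG1, a long RNA found in the nucleus and the cytoplasm (chr22:31366663-31375381), was at 75.4 and 68.2 CPM in chromatin against 400.5 and 410.9 CPM, a relative ratio of −1.45 ± 0.14 (adjusted p = 5.4e-24). DSCAM-AS1, an estrogen receptor-linked lncRNA of luminal breast cells, was at 16.5 and 22.9 CPM against 71.7 and 92.4 CPM, a relative ratio of −1.02 ± 0.15. AP000844.2 stood at −1.22 ± 0.21. The other scalings place the median protein-coding gene lower than the relative scale does, so these 3 had to stay below 0 under them. Transcribed pseudogenes sat with the lncRNAs: 17 of 20 measured in both fractions were called higher in chromatin and 0 higher in poly(A) RNA by edgeR on the relative scale. On both scales 6 and 0 were called, and the median relative ratio was 2.87.

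Replication-dependent histone genes, which encode the core and linker histones made in S phase, differed in how often they reached the poly(A) libraries. Of 22 over the chromatin floor, 15 had neither AATAAA nor ATTAAA near the end of any annotated transcript, and 5 of these reached 1 CPM in both poly(A) libraries. Of the 7 that had a hexamer, 6 reached 1 CPM. H2AC20 was at 78.1 and 93.4 CPM in chromatin and 0.203 and 0.196 CPM in poly(A) RNA, and H1-5, a linker histone, at 24.0 and 27.0 against 0.0677 and 0.0377 CPM. H4C3 was at 64.1 and 66.9 CPM against 0.0903 and 0.0226 CPM. These 3 have no annotated hexamer, and their chromatin values lay far above their poly(A) values in both libraries. Of the 15 genes without a hexamer, 11 had no match to the stem-loop in any annotated transcript either, these 3 among them. Whether the annotation reaches the 3′ ends of these genes was not tested, so the absence of a hexamer describes the annotation.

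H2BC21, which carries both the stem-loop shown above and an AATAAA, stood higher in poly(A) RNA, at 27.7 and 33.0 CPM in chromatin against 117 and 110 CPM (relative ratio −0.86 ± 0.15). H2AC6, also with AATAAA, was at 40.5 and 67.3 CPM against 88.7 and 91.3 CPM (0.29 ± 0.14, below 0 on the TMM scale). Some genes differed from their group. H4C11, counted with the hexamer genes, was at 11.8 and 10.8 CPM against 0.0677 and 0.136 CPM. Its AATAAA lies directly before the stem-loop, and its annotated transcript ends just after the loop. H2BC12 has neither a hexamer nor a match to the stem-loop in the annotation. It was at 30.4 and 30.6 CPM against 149 and 160 CPM, a relative ratio of −1.29 ± 0.15. H2AC13, whose stem-loop is shown above, stood between them at 23.3 and 32.1 against 9.07 and 6.46 CPM. Histone genes have near-identical copies, whose shared reads were not counted, so single members are uncertain.

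**Figure D3:**
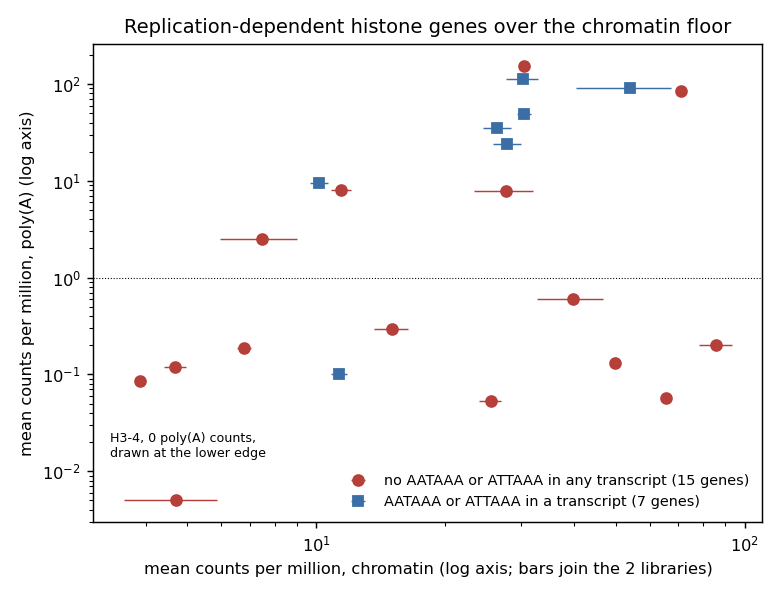
Mean CPM in chromatin (horizontal, log axis, bars joining the 2 libraries) against mean CPM in poly(A) RNA (vertical, log axis) for the 22 replication-dependent histone genes over the chromatin floor. The dotted line is 1 CPM. Above it lie 6 of the 7 genes with an annotated hexamer and 5 of the 15 without. H3-4, with 0 poly(A) counts, is drawn at the lower edge.

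Among the 13 mitochondrially encoded mRNAs, all measured in both fractions, 7 were called higher in poly(A) RNA and 1 higher in chromatin on the relative scale. The shares over all 3659 genes were 16.3% and 24.8%, and the median of the 13 was −1.36. MT-CO1, a subunit of cytochrome c oxidase, was at 900 and 923 CPM in chromatin against 11379 and 12161 CPM in poly(A) RNA (−2.64 ± 0.16), and MT-CO2 followed at −2.62 ± 0.16. MT-ND6 stood apart. It is the only one of these mRNAs encoded on the other strand of the mitochondrial genome, and it was at 2188 and 2504 CPM in chromatin against 36.0 and 27.6 CPM in poly(A) RNA, a relative ratio of 7.25 ± 0.20 and 5.01 on the TMM scale. The mitochondrial rRNAs MT-RNR1 and MT-RNR2 had relative ratios of 0.74 ± 0.15 and 0.94 ± 0.16, both below 0 on the TMM scale.

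Protein-coding genes measured in both fractions were called higher in chromatin in 746 of 3429 cases (21.8%) and higher in poly(A) RNA in 584 (17.0%) on the relative scale, and in 126 (3.67%) and 2858 (83.3%) on the TMM scale. The genes with the largest relative ratios were only just over the floor. The 12 largest ran from GRID2IP (5.96) to MCF2L2 (7.38), and their chromatin levels were 1.012 to 2.346 times the floor, with 6 of them also over a floor set within their class of transcript GC content. MCF2L2, a guanine exchange factor gene, was at 159 and 198 CPM against 2.21 and 2.18 CPM. CAMK2B, a calcium-dependent kinase, was at 70.4 and 108 CPM against 1.24 and 1.22 CPM. The chromatin libraries were well above the poly(A) libraries for both genes, and subtraction of the silent-gene rate of each chromosome left relative ratios of 7.15 and 7.25. A rate over a whole chromosome can miss a higher local background. On chromosome 3 it was 19.8 and 24.4 counts per kb, beside 29.4 and 34.7 beyond 150 Mb. Whether these genes exceed the background around them was not tested.

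Of the 686 protein-coding genes at 2 or more times the floor, 49 were called higher in chromatin and 252 higher in poly(A) RNA. MELTF, which encodes the iron-binding membrane protein melanotransferrin (chr3:196715492-196756687), led them at 118 and 163 CPM against 4.22 and 3.78 CPM (6.18 ± 0.17). TAF1D, a subunit of the RNA polymerase I factor SL1 and a host of snoRNAs, was at 216 and 160 CPM against 38.4 and 41.5 CPM (3.29 ± 0.15). AHNAK, which encodes a very large scaffold protein mainly from one exon (chr11:62201016-62323707), stood 21.6 times over the floor, with 4005 and 3445 CPM in chromatin and 1083 and 931 CPM in poly(A) RNA. Its relative ratio of 2.94 ± 0.16 is 0.70 on the TMM scale (adjusted p = 0.052). TRPS1, a GATA-type repressor of luminal cells with a span of 401 kb, was at 1472 and 1241 CPM against 912 and 935 CPM (1.61 ± 0.15, but −0.65 under TMM). AHNAK and TRPS1 were chosen after their values were seen.

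Position along the genome moved with these calls. Of the 16 largest relative ratios at 2 times the floor, 7 were on chromosome 3 beyond 150 Mb (MELTF, TMEM44, CLCN2, FAM131A, TNK2, DYNLT2B and RPL22L1). Of 131 protein-coding genes measured in both fractions there, 38.9% were called higher in chromatin, beside 21.1% of the 3298 elsewhere, and 15 of 49 against 34 of 637 at 2 times the floor. Silent genes in the same region also had more chromatin counts, 29.4 and 34.7 per kb over 21 genes, beside 15.7 and 19.1 over the other 3054. Across 52 windows of 25 Mb with enough genes, the silent-gene rate and the median relative ratio of genes measured in both fractions correlated at r = 0.544 and rho = 0.521, as a description over windows that share the same libraries. The region was chosen after its values were seen, and the part of the silent-gene rate in these calls was not tested.

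By the rule fixed for all genes tested, the 12 protein-coding genes with the largest ratios to chromatin had 0 counts in both poly(A) libraries. SLC47A2, an organic cation transporter, was at 52.7 and 58.6 CPM in chromatin. Its density was 55.4 and 58.4 counts per kb, 1.07 times the floor in the library where it was closest, and the floor is by construction exceeded by some silent genes. CRB2, PDGFRB, SEMA5B and INSRR were likewise over the floor. FLI1, SCN3B, CHRNA4, FLG, MUC6 and ETS1 were not, with 34.7 and 47.8 counts per kb for FLI1 and 37.2 and 54.8 for ETS1. The floor of the GC class turned this split: SLC47A2, CRB2, PDGFRB, SEMA5B and INSRR were under it, and FLI1, SCN3B and ETS1 over it. These chromatin counts are thus not told from those of silent genes, and no fold is given.

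The largest ratios to poly(A) RNA belonged to a set of genes named here only because they led the ranking, with what each is known to do. IFIT1, which binds viral RNA, was at 10.8 and 9.15 CPM in chromatin against 1228 and 1380 CPM in poly(A) RNA, a relative ratio of −5.98 ± 0.19. IFI6, an interferon-induced membrane protein, was at 10.4 and 10.9 against 1346 and 922 CPM (−5.69 ± 0.19), and ISG15, a ubiquitin-like modifier, at 4.83 and 7.20 against 578 and 528 CPM (−5.49 ± 0.19). The rule that picked them required that the fractions not overlap, so their separation is a condition of the choice. IFITM1, MX1, IFIT3, OAS1, OAS2, OAS3, UBE2L6 and IFI27, whose products restrict viruses or modify proteins with ISG15, or are induced by interferon, stood between −5.70 and −4.18. Only IFI6, ISG15 and HSPB1 of the 12 leading genes were over the chromatin floor. The other 9 were at 0.36 (IFIT1) to 0.93 (OAS3) of the floor, and OAS2 and OAS3 were over the floor of their GC class. IFIT1 had 24.7 and 19.8 counts per kb and OAS3 45.7 and 50.7, beside silent-gene medians of 12.6 and 14.7.

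HSPB1, a small heat shock chaperone (chr7:75931861-75933612), was 5.60 times over the floor, with 62.6 and 75.0 CPM in chromatin against 2935 and 2630 CPM (−4.30 ± 0.17). BST2, a tether of budding virus, CLU, a secreted chaperone, B2M and HLA-C, the chains of class I histocompatibility molecules, and PIP, a secreted protein of apocrine and luminal cells, had relative ratios from −3.67 to −3.34. MGP, a matrix protein, was at 189 and 219 CPM against 4049 and 3801 CPM. NUPR1, S100A11, MGP itself and FTH1, the heavy chain of ferritin, closed the 12 largest measured in both fractions, at −3.27 to −3.19. The TMM scale lies about 2.29 lower, so these ratios are necessarily further below 0 on it.

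Groups of genes by function fell in a graded order. Of 74 cytosolic ribosomal protein genes measured in both fractions, 44 were called higher in poly(A) RNA and 3 higher in chromatin, with a median relative ratio of −1.17 (−1.29 to −1.02 over library pairs). The translation factors (32 genes, 14 against 0), glycolysis (13, 8 against 0), protein folding and secretion in the endoplasmic reticulum (24, 12 against 0), lysosome (20, 11 against 0) and luminal markers (18, 10 against 1) had medians of −0.82, −1.09, −1.05, −1.17 and −1.09. These counts stand beside 17.0% and 21.8% over protein-coding genes. At 2 or more times the floor the median of all protein-coding genes was itself −0.76. Against that median the 6 groups lay lower by less: ribosomal proteins (53 genes) at −0.43, translation factors at −0.38, glycolysis at −0.52, endoplasmic reticulum genes at −0.88, lysosomal genes at −0.11 and luminal markers at −0.38.

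Examples show the size of these ratios. RPL14, of the large ribosomal subunit, was at 37.1 and 46.6 CPM in chromatin against 521 and 496 CPM in poly(A) RNA (−2.56 ± 0.15). HSPA5, the main chaperone of the endoplasmic reticulum, was at 146 and 132 against 1595 and 1651 CPM (−2.49 ± 0.15), and CTSD, a lysosomal protease, at 64.3 and 90.7 against 1006 and 843 CPM (−2.54 ± 0.15). GAPDH, LDHA and PKM of glycolysis were at −1.32, −1.71 and −1.49. The elongation factor EEF2 was at −1.97 and AGR2, a disulfide isomerase of luminal cells, at −2.63. Exceptions were the ribosomal protein genes RPL22L1 (1.91), RPS10 (1.84) and RPL39 (1.29), called higher in chromatin on the relative scale and below 0 on the TMM scale.

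Oxidative phosphorylation genes of the nucleus (58 genes, 15 for poly(A) RNA and 2 for chromatin, median −0.64), proteasome subunits (23, 3 and 0, −0.74), mitochondrial ribosomal proteins (34, 3 and 2, −0.42), core spliceosome proteins (25, 8 and 0, −0.33) and RNA polymerase II subunits (6, 1 and 0, −0.66) had medians nearer to 0. Beside the 17.0% of protein-coding genes called for poly(A) RNA, the share was 25.9% for oxidative phosphorylation and 32.0% for core spliceosome proteins, but 13% for the proteasome, 8.82% for mitochondrial ribosomal proteins and 16.7% for RNA polymerase II subunits, which is at or below it. At 2 times the floor, relative to protein-coding genes of that set, oxidative phosphorylation genes were at 0.11, proteasome subunits at 0.05 and RNA polymerase II subunits (2 genes) at 0.64, so their side depends on the floor. Kinases and SR proteins of splicing (18 genes, 1 and 2, 0.13) and estrogen response genes (9, 1 and 1, −0.01) lay near the median gene. All of these medians are below 0 on the TMM scale. POLR2A, the largest subunit of RNA polymerase II, was at 124 and 138 CPM against 460 and 376 CPM (−0.63 ± 0.14).

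Groups with more chromatin than poly(A) calls on the relative scale, all with medians below 0 under TMM, were mitosis genes (11 genes, 6 for chromatin and 0 for poly(A) RNA by edgeR, median 1.04), DNA replication (14, 4 and 0, 0.63), C2H2 zinc finger genes (30, 11 and 2, 0.76), immediate early genes (10, 4 and 1, 0.59), Mediator subunits (8, 2 and 0, 0.60), chromatin modifiers (18, 4 and 0, 0.31) and snoRNA hosts (15, 4 and 2, 0.79). Beside the 21.8% of protein-coding genes called for chromatin, the shares were 54.5%, 28.6%, 36.7%, 40%, 25%, 22.2% and 26.7% in that order, so chromatin modifiers, Mediator subunits, snoRNA hosts and replication genes were near it. The members called included ASPM (2.64), KIF20B (2.45) and CENPF (1.93), proteins of the spindle and kinetochore, and CDT1 (2.22), which licenses replication origins. MYC, an immediate early transcription factor, was at 22.6 and 28.0 CPM against 10.6 and 10.2 CPM, a relative ratio of 2.33 ± 0.17 that is 0.06 on the TMM scale. Few of these genes were far over the floor. At 2 times the floor 1 mitosis gene (called higher in chromatin), 2 replication genes and 4 zinc finger genes (none called by edgeR) were left. Of zinc finger genes 431 of 548 passed in poly(A) RNA alone, with a median relative ratio of 1.77. With the floor of the GC class 90 zinc finger genes were measured in both fractions, with a median of 1.45. Of them 56 (62.2%) were called for chromatin and 0 for poly(A) RNA by edgeR. Under that floor the shares over 4778 protein-coding genes were 23.7% and 13.7%. Of 7 long cell adhesion and synapse genes 1 was called for chromatin, and of 5 HOX genes 2.

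**Figure D4:**
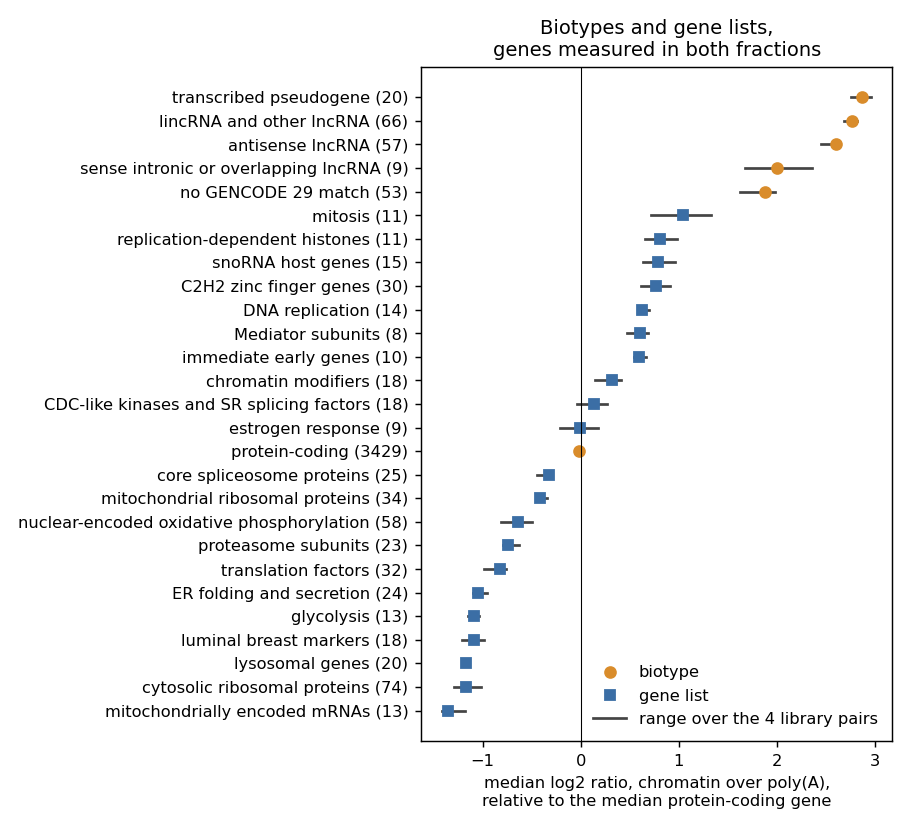
Median log2 ratio of chromatin to poly(A) RNA relative to the median protein-coding gene for biotypes (circles) and gene lists (squares) among genes measured in both fractions, with the number of genes in brackets and lines for the range over the 4 library pairs. Only the top 3 medians exceed 2.29, the value that corresponds to 0 on the TMM scale, and ribosomal protein, lysosomal and mitochondrially encoded genes are at the bottom.

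From 2 kb upward, protein-coding genes with a longer span had relatively more chromatin RNA. The median relative ratio of those measured in both fractions was −0.37 for 75 genes under 2 kb, −0.43 for 754 genes of 2 to 10 kb, −0.11 for 1072 of 10 to 30 kb, 0.15 for 1126 of 30 to 100 kb, 0.40 for 354 of 100 to 300 kb and 1.04 for 48 genes over 300 kb. In the same order 12, 109, 234, 263, 103 and 25 genes were called higher in chromatin. These are 16, 14.5, 21.8, 23.4, 29.1 and 52.1%, beside 21.8% of all protein-coding genes measured in both fractions. Called higher in poly(A) RNA were 20, 201, 191, 145, 26 and 1, or 26.7, 26.7, 17.8, 12.9, 7.34 and 2.08%, beside 17.0%. For genes over 300 kb the median ranged from 0.86 to 1.03 over library pairs, and was 0.99 after subtraction of the silent-gene rate. The quartiles overlapped, at −0.02 to 1.62 over 300 kb and −1.04 to 0.40 at 2 to 10 kb. These medians are below 0 on the TMM scale at every span.

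Genes over 300 kb called higher in chromatin included MECOM, a zinc finger regulator (chr3:168801287-169381406), at 96.0 and 130.5 CPM against 26.0 and 26.9 CPM (3.13 ± 0.15). NAALADL2, a membrane peptidase-like gene of 1367 kb, was at 67.2 and 76.6 CPM against 19.2 and 20.6 CPM (2.89 ± 0.15), and MAD1L1, a spindle checkpoint gene, at 67.8 and 105 against 19.1 and 15.8 CPM (3.35 ± 0.15). Both chromatin libraries exceeded both poly(A) libraries in CPM for these 3. MECOM and NAALADL2 lie on chromosome 3 beyond 150 Mb.

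The number of exons moved with the ratio only at its upper end. Medians were −0.12 for 77 genes with 1 exon, −0.39 for 114 with 2, −0.45 for 310 with 3 to 4, −0.36 for 825 with 5 to 8, −0.10 for 1070 with 9 to 16 and 0.47 for 1033 with over 16. Within genes of 30 to 100 kb those with over 16 exons had a median of 0.36, and within 100 to 300 kb 0.59 against 0.10 for 9 to 16 exons. Within the most abundant of 3 equal classes of mean level the medians were −0.06 for over 16 exons and −1.01 for 5 to 8, and 0.54 over 300 kb against −1.19 for 2 to 10 kb. Protein-coding genes with AATAAA had a median of −0.02, those with ATTAAA −0.04, and those with no such hexamer 0.02. Genes inside an intron of another gene on the same strand (23) had a median of −0.17, and those apart from other genes (1253) −0.08.

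The GC content of transcripts moved with the ratio in a way that depended on the floor. With 1 floor for all genes the median, less that of all protein-coding genes of the set, was 0.58 above 60% GC and −0.34 at 50 to 55%. With a floor set within each GC class it was −0.02 above 60% and 0.40 under 40%. The background itself rose with GC, from medians of 8.26 and 9.30 counts per kb in silent genes under 40% GC to 22.1 and 31.2 above 60%. Genes over 300 kb and those with over 16 exons kept medians above the protein-coding median under both floors (1.06 and 0.90; 0.48 and 0.38) and at 2 times the floor (1.37 with 6 genes; 0.61 with 150). The part of GC content in the other class differences was not tested beyond these floors.

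**Figure D5:**
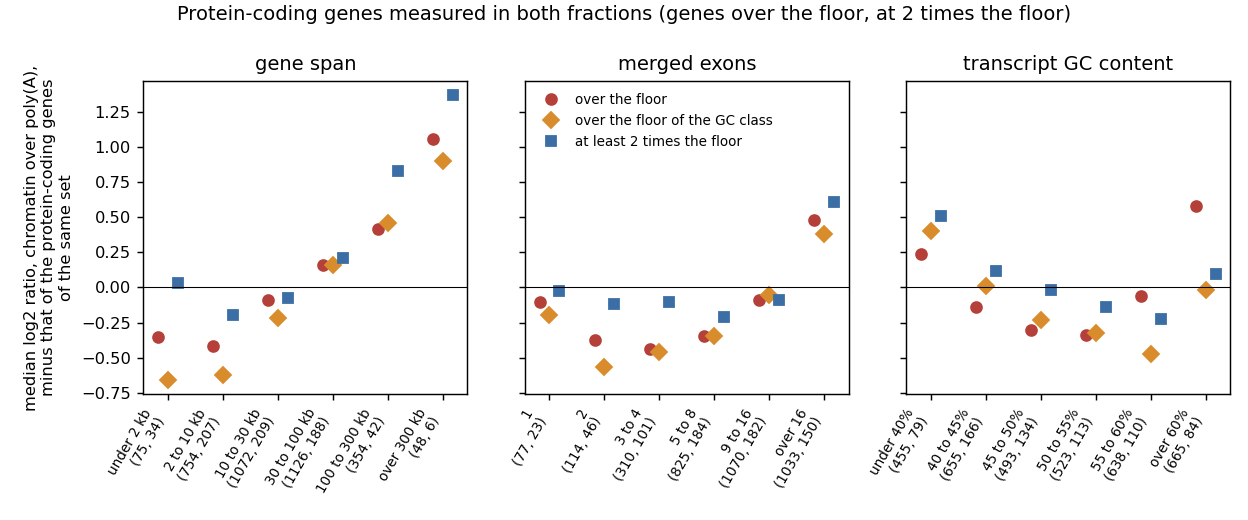
Median log2 ratio of protein-coding genes measured in both fractions, less that of all protein-coding genes of the same set, by gene span, number of merged exons and transcript GC content, for 3 chromatin floors. Numbers in brackets are genes over the floor and genes at 2 times the floor. The order by span from 2 to 10 kb upward and the high value over 16 exons stand under all 3 floors, and the value above 60% GC is 0.58 with the single floor and −0.02 with the floor of the GC class. All medians drawn for the single floor are below 0 on the TMM scale.

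The receptors ESR1 and PGR and the luminal genes GATA3 and KRT8 were near or below the median gene, and GREB1 and PADI2 were above it. GATA3, a luminal transcription factor, was at 206 and 206 CPM in chromatin against 717 and 711 CPM in poly(A) RNA (−0.74 ± 0.14), and KRT8 at 330 and 374 against 2273 and 2006 CPM (−1.56 ± 0.15). ESR1, the estrogen receptor, and PGR, the progesterone receptor, were not over the chromatin floor in both libraries, with relative ratios of −0.36 ± 0.14 and −0.14 ± 0.14. GREB1, an estrogen target, stood at 0.66 ± 0.14 and PADI2, the gene targeted elsewhere in the study, at 1.59 ± 0.15, both also not over the floor and both below 0 on the TMM scale.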

How the data were processed

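Each library was deposited as a table of unnormalized gene-level counts. Per the file headers, the authors counted alignments with featureCounts 1.4.6-p2 (chromatin) or 1.5.1 (poly(A)) over exons of GENCODE 19 genes on hg19, as pairs, with strand option 2; no option for multi-mapping or multi-overlapping reads was set. Intronic reads therefore do not enter the chromatin counts. Reads were trimmed with Trimmomatic and aligned with STAR, per the submitters' processing notes. Names and biotypes came from GENCODE 29 for 52338 of 57820 genes.

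The test was edgeR 4.0.16's quasi-likelihood test (TMM, filterByExpr, robust) run under R 4.3.3; p-values were adjusted by Benjamini-Hochberg across the 39603 genes that passed the filter. In simulated data for this comparison (39454 genes) 82% of 4-fold and 18% of 2-fold changes were called. DESeq2 1.42.0, other scalings and filters, and each library left out were alternatives. Class medians have no test, since members are not replicates and 2 libraries against 2 cannot give an exact permutation p below 0.333.

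Members and lists were chosen with earlier results of these data known. The floor, the genes measured in both fractions, the relative scale and the stricter floors were chosen after the data were seen. Named genes are the 12 protein-coding and 6 other called genes with the largest ratios in each direction. These needed 10 CPM or more in both libraries of the higher fraction and no overlap between the fractions. To them were added the largest called among genes measured in both fractions, the 2 largest called members per list, and a fixed set, with examples from each. Other genes, such as those over 300 kb, at 2 times the floor or in histone and small RNA paragraphs, were chosen after their values were seen. Genes on the Y chromosome are not named, and 1 gene that the rule picks is not reported here.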

Additional observations from a re-analysis of the deposited data

How the results depend on the processing

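Of all genes tested, the count higher in chromatin (27123) fell to 12699 after subtraction of the silent-gene rate, and the count higher in poly(A) RNA (8133) to 3723 with total counts, 4751 with protein-coding TMM factors, 4584 with thinned poly(A) libraries and 995 on the relative scale. With 1 library left out the counts ranged from 19290 to 26364 and from 7044 to 8513. Among genes measured in both fractions, 906 and 597 became 185 and 2933 under TMM, 425 and 1800 with total counts, 346 and 2125 with protein-coding TMM factors, 176 and 2967 with median-of-ratios factors, 178 and 2968 with DESeq2, and 78 and 261 at 2 times the floor. On the relative scale they stayed between 893 and 922 and between 587 and 614 without 1 library.

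The median of protein-coding genes minus that of all genes tested (−5.93) was −4.55 with thinned poly(A) libraries, −5.57 without genes under 200 bases and −1.98 after subtraction; that of lncRNA (2.20) was 6.07 after subtraction. With 1 library left out they ranged from −6.02 to −3.87 and from 1.61 to 3.86. The difference between genes over 300 kb and of 2 to 10 kb was −2.28 over all genes tested, −1.89 with thinned libraries, −2.64 without same-strand overlaps, and −2.51 to −1.13 with 1 library left out, but reversed to 1.96 in protein-coding genes alone, 1.32 in genes measured in both fractions and 1.47 in protein-coding ones among them; from low to high level, in 3 classes, it was 0.49, 1.71 and 1.31, and by GC content, in 3 classes, −3.97, −3.34 and 1.42. The difference between over 16 exons and 1 exon was −8.27, −6.52 with thinned libraries, −8.59 to −7.04 with 1 library left out, −0.031 in genes measured in both fractions, 0.59 in protein-coding ones among them, and 0.34, 3.86 and −0.61 from low to high level. The cause of these shifts was not tested. The relative ratios of the named genes with a poly(A) count reversed in 0 of 2206 values under the alternatives. Each alternative was set again to its own median protein-coding gene, so a change of scale alone could not reverse them. Without that step NEAT1, GAS5 and TRPS1 are below 0 under TMM. In called genes 10 values fell under 2-fold, with no adjusted p considered. After subtraction these were H2BC12, GAPDH, ACTB, KRT18 and SNHG32. The others were SNHG32 without chromatin replicate 5 or poly(A) replicate 1, SRRM2 without poly(A) replicate 1, and DSCAM-AS1 without chromatin replicate 1 or poly(A) replicate 2.

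No paired analysis was possible because the groups share only replicate number 1. Depth limits low genes: the poly(A) libraries are deeper than the chromatin libraries, and chromatin counts at the floor cannot be told from those of silent genes. TMM made poly(A) library 2 effectively 2.14 times as deep as library 1, whereas the ratio of totals, and that of genes over 200 counts, was 3.00.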
